A study of Mus musculus with 4 samples.

Results

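Rab GTPases and SNARE proteins, the machinery that moves and fuses vesicles, were compared between the Met-low and Met-high populations of B16-F10, a mouse melanoma cell line. The members are genes whose RefSeq symbol begins with Rab, Stx, Vamp or Snap followed by a digit, or with Vti1. *Rab27a*, *Rab32* and *Rab38* were left out, as were the Snapc genes, which encode a transcription complex. Of 106 such genes in the name table, 95 had a probe on the array, and 82 of these gave a signal well above background in both samples of Met-low, of Met-high, or of each. These 82 genes are the members described here, among 11958 genes of the whole array that met the same requirement. The rule used the brightness of a probe, and 4 members, *Rab11fip1*, *Rab11fip5*, *Rab39b* and *Rab37*, met it only through the population in which they were brighter.

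Both populations came from 1 cell line, were separated by flow cytometry according to the amount of the Met receptor on the cell surface, and were grown for 3 days in medium with fetal bovine serum before total RNA was prepared. No further treatment or introduced genetic change is stated for these samples, and the line itself, B16-F10, limits both groups as a model. There were 2 Met-low and 2 Met-high samples, each on its own 1-colour Agilent array. By the numbers in the names given to the scans, Met-low lay at slide positions 1 and 2 and Met-high at 3 and 4. With these positions the place on the slide cannot be told apart from the population. The cells of the 2 samples of a population were prepared independently, and this number of samples limits the precision.

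A Rab GTPase binds a membrane through lipid anchors and, while it holds GTP, recruits effector proteins that move, tether or dock a vesicle, so that each Rab is found on particular compartments. Exchange factors load GTP and GTPase-activating proteins end the active state. SNAREs then drive the fusion itself: a VAMP on the vesicle pairs with a syntaxin and a SNAP-25 family protein, or with separate Qb and Qc SNAREs, on the target membrane. In melanocytes this traffic carries pigment enzymes to the maturing melanosome and moves the melanosome to the cell edge.

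All 4 arrays lay on 1 slide and came from 1 scan, and at most 53.6% of the 43020 spots that are not controls were well above background. No array stood apart in depth, since the 75th percentile of the intensity lay between 858 and 1331. All 9 melanocyte marker genes, among them *Dct*, *Tyrp1*, *Pmel* and *Mlana*, were well above background on every array, and their summed level lay between 1466 and 1787 times the 75th percentile in Met-low and between 1570 and 1790 times in Met-high cells. Of 23 markers of fibroblasts, endothelium, leukocytes and keratinocytes, 5 were well above background on all arrays and 10 on none, and *Ptprc*, *Cdh5*, *Pdgfra* and *Krt1* were among the latter. The former were *Col1a2*, *Kdr* and 3 of 6 leukocyte markers, *Cd3e*, *Itgam* and *Csf1r*. In Met-high cells *Itgam* was lower (log2 difference -0.65, adjusted p = 0.188 in limma) and *Csf1r* higher (0.35, adjusted p = 0.3), both without overlap. For *Cd3e* the arrays overlapped. The summed level of the 7 fibroblast markers was 0.64 and 0.692 in Met-low against 0.394 and 0.335 in Met-high samples, and that of the 5 endothelial markers was 6.32 and 5.49 against 8.45 and 6.73, neither with overlap. Single genes carried these sums. *Col1a2* made up 63.3% to 87.2% of the fibroblast sum and was lower in Met-high cells (adjusted p = 0.0311), and *Kdr* made up at least 98.5% of the endothelial sum and did not pass the test (adjusted p = 0.301). The sums of the leukocyte markers (5.59 and 6.23 against 6.62 and 5.25) and of the keratinocyte markers (0.218 and 0.123 against 0.171 and 0.113) overlapped, and the part of these cell types in the results below was not tested. For *Met*, by whose protein the cells were sorted, the log2 difference was 0.87 (standard error 0.51, adjusted p = 0.333 in limma), and the arrays of the populations overlapped. Relative to the 75th percentile, its log2 level was -0.26 and -0.89 in Met-low against 1.03 and -0.43 in Met-high samples. The study itself reported much more *Met* mRNA in Met-high cells by quantitative RT-PCR after 3 days of culture.

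Signals below are log2 intensities set against an array's 75th percentile, and differences are Met-high minus Met-low on that log2 scale. Signals of different genes come from different probes and are not set against each other. The populations were compared with limma over all 11958 genes, and adjusted p-values are those of limma after Benjamini-Hochberg adjustment.

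Most members differed little between the populations. The log2 difference was under 0.5 in size for 64 of 82 members (78.0%), against 72.6% of all genes tested. The median difference was -0.01 over the members and 0.10 over all genes. With the adjusted p below 0.05, 3 members were higher and 1 was lower in the Met-high population, a share of 4.88% beside a background of 5.77% of all genes called in either direction (1.95% higher and 3.82% lower). By a 2-fold difference of the means without a test, 3 members were higher and 2 lower (6.10% in all), beside 2.43% and 5.29% of all genes and 7.73% in either direction. With both directions together, these shares were near the background. By direction, 3.66% of the members were higher and 1.22% lower at the adjusted p in limma, and 3.66% higher and 2.44% lower past 2-fold. Each of these shares rests on 3 genes or fewer. Both members on the lower side passed the brightness rule through Met-low alone, so that these lower counts partly follow from the rule, and they are 0 when every array must be well above background. The genes past either threshold were *Stx3*, *Rab17* and *Rab11fip4* on the Met-high side, and *Rab11fip5* and *Rab39b* on the Met-low side.

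**Figure D1:**
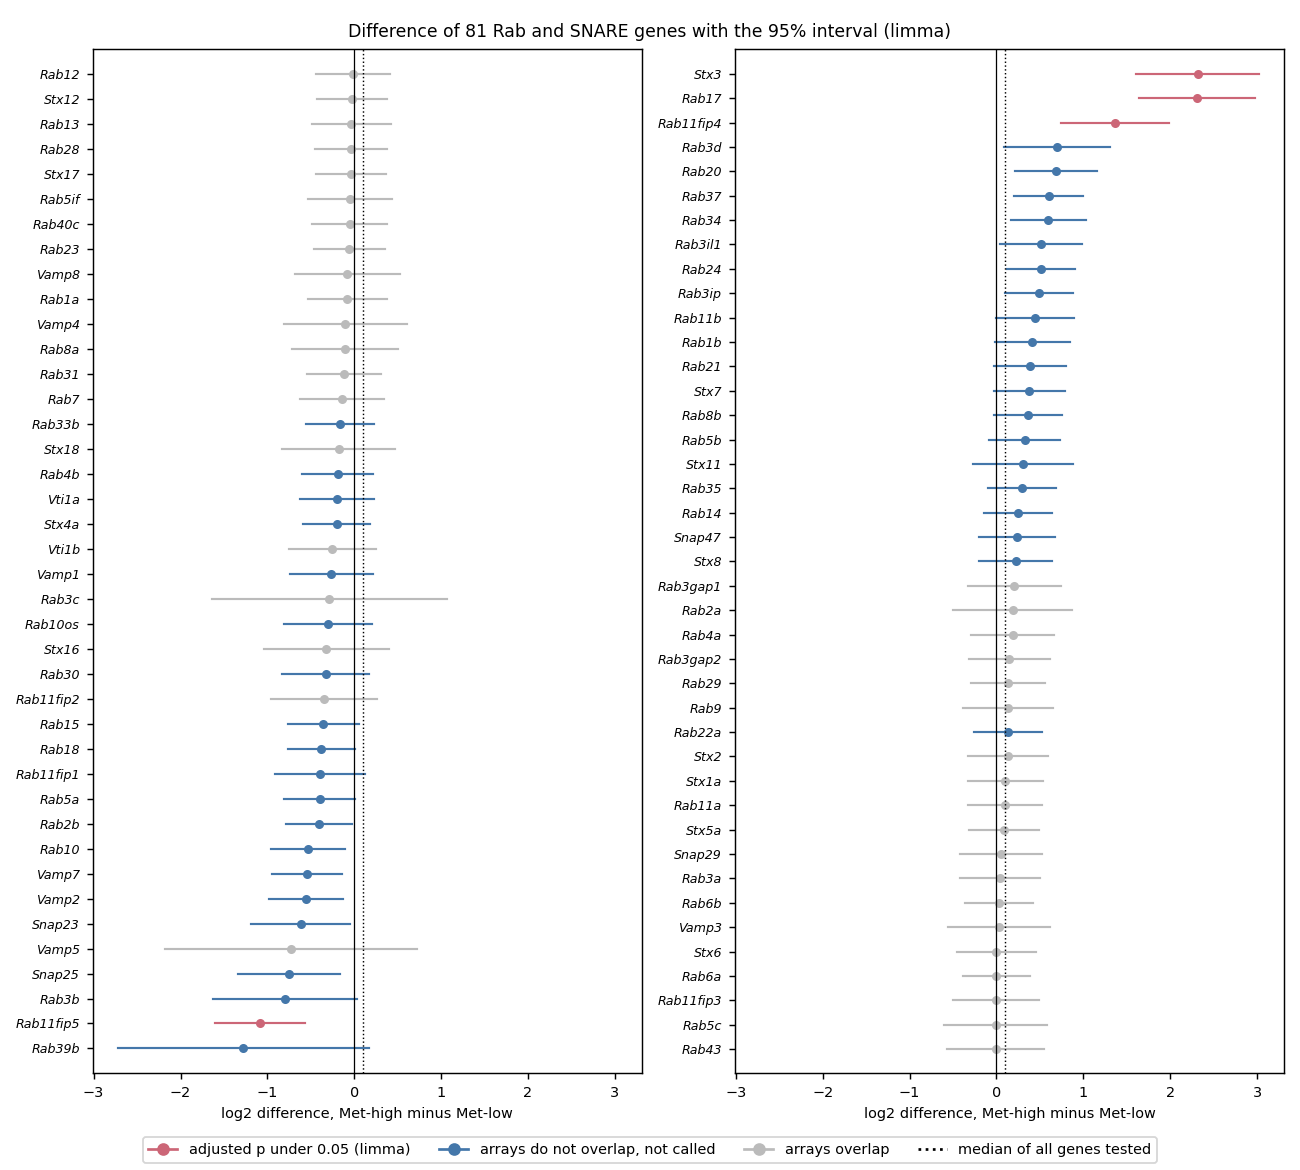
Log2 difference, Met-high minus Met-low, of 81 of the 82 members (points) with the 95% interval from limma (lines), in order of the difference from the lower left to the upper right. The intervals of 17 members, those at an unadjusted p under 0.05, exclude 0, among them the 4 genes at an adjusted p under 0.05, and the dotted line marks the median of all genes tested, 0.10.

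*Stx3* encodes syntaxin 3, a Qa-SNARE of the plasma membrane and of secretory organelles. It is tied to the pigmentation of melanosomes. Its signal (NM_152220) was -3.17 and -2.42 in Met-low against -0.39 and -0.57 in Met-high samples, so that both Met-high arrays lay far above both Met-low arrays. The log2 difference was 2.32 (standard error 0.28, adjusted p = 0.0177), a ratio of 4.98-fold. A second probe of the same transcript was not well above background on either Met-low array and was at least 3.23-fold higher in Met-high cells. That bound sets the Met-high mean against a floor in each Met-low sample, the larger of the probe's signal and the dimmest signal there that was well above background. One more probe, for transcript NM_001025307, was not well above background on any array.

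*Rab17* encodes a GTPase of recycling endosomes, known from polarised epithelia and, in melanocytes, from filopodia and the release of melanosomes. The signal of *Rab17* (NM_008998) was -1.38 and -0.77 in Met-low against 1.05 and 1.42 in Met-high samples. Its log2 difference was 2.31 (standard error 0.27, adjusted p = 0.0156), or 4.96-fold. A second probe gave 2.12, with signals of -2.76 and -2.13 in Met-low and -0.33 and -0.32 in Met-high cells. With 2 probes of each gene in the same direction, *Stx3* and *Rab17* had the largest differences among the members. Both kept an adjusted p under 0.05 in 14 of 15 alternatives without pairing. The exception was the fit without a filter on dim probes, with 0.103 for *Stx3* and 0.10 for *Rab17*.

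*Rab11fip4* and *Rab11fip5* encode proteins that bind Rab11 and link recycling endosomes to motors and membranes. The former is a class II member of that family and the latter a class I member, also called Rip11. *Rab11fip4* (NM_175543) was at -1.46 and -1.99 in Met-low against -0.18 and -0.53 in Met-high samples, a log2 difference of 1.37 (standard error 0.25, adjusted p = 0.0431). *Rab11fip5* (NM_001003955) went the other way, with -4.16 and -3.71 in Met-low against -5.05 and -4.99 in Met-high samples, a log2 difference of -1.09 (standard error 0.21, adjusted p = 0.0493). Neither gene showed overlap between the populations, and each had 1 probe.

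The call of *Rab11fip5* depended on the processing. Only 1 of 2 Met-high arrays was well above background for it, and it passed the adjusted p in 3 of 14 alternatives without pairing, with a log2 difference of -0.35 (adjusted p = 0.202) after a normexp background correction. Leaving out Met-low replicate 2 gave an adjusted p of 0.117, and leaving out Met-high replicate 1 or 2 gave 0.0644 or 0.0662. *Rab11fip4* was called in 11 of 15 alternatives, and lost the call with an adjusted p of 0.0643 without Met-low replicate 2, 0.0596 with every probe by itself, 0.182 without a filter on dim probes and 0.0735 with the 75th percentile taken over detected probes. The last of these moved the median difference of all genes from 0.10 to -0.05, and with it 2 members were called higher and 1 lower, while normexp and quantile normalization each gave 3 higher and 0 lower.

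The region just before the start of the called genes is given as a description of sequence, except for *Rab11fip4*, for which no promoter was found. The part of these sequences in the differences was not tested. RefSeq promoters of the assembly GRCm38.p6 were found for 70 of the 82 members, among them *Stx3*, *Rab17* and *Rab11fip5*. The 250 bases before the start of each follow, 5′ to 3′ on the strand of the gene.
Stx3, chr19:11819404-11819653, minus strand: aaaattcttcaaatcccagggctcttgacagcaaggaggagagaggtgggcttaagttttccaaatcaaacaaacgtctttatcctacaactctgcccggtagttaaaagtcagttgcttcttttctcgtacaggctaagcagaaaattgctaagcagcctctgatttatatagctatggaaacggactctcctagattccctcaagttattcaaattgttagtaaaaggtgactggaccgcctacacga
Rab17, chr1:90967668-90967917, minus strand: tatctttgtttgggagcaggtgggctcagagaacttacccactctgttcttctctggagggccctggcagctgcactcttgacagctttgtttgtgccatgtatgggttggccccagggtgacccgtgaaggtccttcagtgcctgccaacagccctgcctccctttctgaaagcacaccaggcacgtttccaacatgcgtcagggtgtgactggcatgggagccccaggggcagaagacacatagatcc
Rab11fip5, chr6:85374635-85374884, minus strand: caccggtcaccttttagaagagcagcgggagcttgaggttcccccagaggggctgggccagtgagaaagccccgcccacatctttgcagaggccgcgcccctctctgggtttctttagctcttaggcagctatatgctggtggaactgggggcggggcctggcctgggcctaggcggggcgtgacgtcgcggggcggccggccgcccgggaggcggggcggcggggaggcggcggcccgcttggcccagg
The share of G and C in these stretches was 42% for *Stx3*, 56.8% for *Rab17* and 71.2% for *Rab11fip5*. None of the motifs described with the promoters of *Rab5a*, *Rab21* and *Rab24* was in these windows, so no capitals appear.

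The remaining Rab11-binding proteins did not pass the test. *Rab11fip1* differed by -0.39 (adjusted p = 0.288), *Rab11fip2* by -0.35 (adjusted p = 0.407) and *Rab11fip3* by under 0.01 in size (95% interval -0.50 to 0.49). Their partners *Rab11a* and *Rab11b*, the GTPases of the recycling endosome, differed by 0.10 (95% interval -0.32 to 0.52) and 0.45 (standard error 0.18). For *Rab11b* the signal was 2.53 and 2.36 in Met-low against 2.76 and 3.01 in Met-high samples, without overlap, but with an adjusted p of 0.192. Of the other genes named for a Rab that encode no GTPase, *Rab3ip* and *Rab3il1*, both exchange factors for Rab8, differed by 0.49 (adjusted p = 0.133) and 0.52 (adjusted p = 0.164), each without overlap between the populations. The subunits of the Rab3 GTPase-activating complex, *Rab3gap1* and *Rab3gap2*, differed by 0.20 and 0.15 with overlap.

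**Figure D2:**
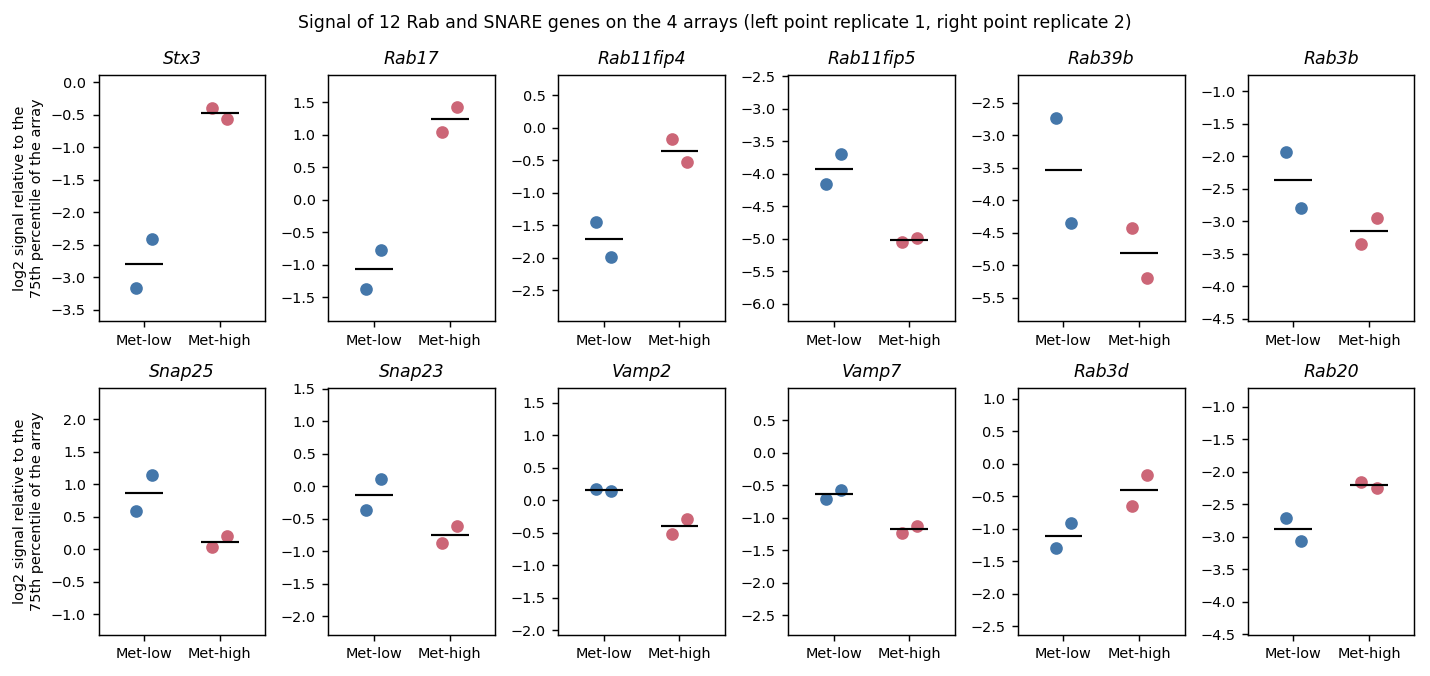
Log2 signal against an array's 75th percentile (vertical axes, all spanning the same range) of 12 members in the 2 Met-low and 2 Met-high samples, with a bar at the mean of each population. The points of *Stx3* and *Rab17* do not overlap between the populations, and the Met-low points of *Rab39b* lie 1.62 apart.

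Among the 15 Rabs of early and recycling endosomes, 10 had a higher and 5 a lower mean in Met-high cells. Over all 11958 genes tested, 7119 were higher and 4839 lower. The median difference of these Rabs was 0.19, and *Rab17* was the one called. Rab5 GTPases govern fusion at the early endosome, and the study used Rab5 protein to gauge the amount of exosomes. *Rab5a* was at 0.78 and 0.95 in Met-low against 0.42 and 0.52 in Met-high samples, a difference of -0.40 (95% interval -0.81 to 0.01, adjusted p = 0.201), and a second probe also gave -0.40. *Rab5b* was at 2.12 and 1.98 in Met-low against 2.44 and 2.32 in Met-high samples, a difference of 0.33 (95% interval -0.08 to 0.74, adjusted p = 0.267). *Rab5c* was at 4.15 and 3.67 in Met-low against 4.06 and 3.74 in Met-high samples, so that its arrays overlapped and the difference was -0.01 (95% interval -0.60 to 0.59).

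The arrays of *Rab5a* and *Rab5b* did not overlap, in opposite directions. None of the Rab5 genes passed the test. The direction of *Rab5b* rests on its brightest probe, since its dimmer probes gave 0.12, -0.08 and -0.84, and the mean over its probes was -0.12. *Rab20*, a Rab of endosomes and phagosomes, was at -2.71 and -3.06 in Met-low against -2.15 and -2.25 in Met-high samples (difference 0.68, adjusted p = 0.104). *Rab21* and *Rab35*, which act in integrin and membrane recycling, differed by 0.39 (adjusted p = 0.211) and 0.29 (adjusted p = 0.286), likewise without overlap. *Rab14* and *Rab22a*, of endosomes, were also higher without overlap (0.25 and 0.13), *Rab15* and *Rab4b*, of endosomal recycling, were lower without overlap (-0.36 and -0.19), and *Rab4a* and *Rab31* differed by 0.19 and -0.12 with overlap, and the lowest adjusted p among these genes was 0.236.

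The 11 Rabs of the endoplasmic reticulum and the Golgi ranged from -0.41 for *Rab2b* to 0.60 for *Rab34*, with a median of -0.01. *Rab34*, a Golgi Rab that also acts in the formation of cilia, was at 3.91 and 3.67 in Met-low against 4.43 and 4.34 in Met-high samples (adjusted p = 0.112). *Rab2b* was at 0.63 and 0.59 on the Met-low and 0.20 on both Met-high arrays (difference -0.41, adjusted p = 0.173). The paralogs *Rab1a* and *Rab1b*, which act between the endoplasmic reticulum and the Golgi, differed by -0.08 and 0.41, and *Rab6a* and *Rab6b*, of transport within the Golgi and back from it, by under 0.01 in size and by 0.03. *Rab18*, known from lipid droplets, and *Rab30* were lower without overlap, at -0.38 (adjusted p = 0.199) and -0.33 (adjusted p = 0.34). No gene of this group passed the adjusted p in limma, and at an unadjusted p under 0.05 there was 1 of 11 in each direction, *Rab34* and *Rab2b*, beside 14.3% higher and 11.9% lower over all genes.

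Of the 6 Rabs of exocytic and polarised transport, *Rab10*, which delivers vesicles to the plasma membrane, was lowest at a difference of -0.53 (adjusted p = 0.133). Its signals were 2.79 and 2.56 in Met-low against 2.15 and 2.13 in Met-high samples, and a second probe gave -0.32. *Rab8b* had the highest difference of that group at 0.37 (adjusted p = 0.212), while its paralog *Rab8a* differed by -0.11 with overlap and had a second probe at 0.42. *Rab12*, *Rab13* and *Rab23* differed by -0.02, -0.03 and -0.06.

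Late endosome, lysosome and autophagosome Rabs were represented by 5 members. *Rab39b*, known from neurons and from autophagy, had the lowest mean difference of all 82 members, -1.28 (standard error 0.57, adjusted p = 0.233). Its signals were -2.73 and -4.35 in Met-low against -4.43 and -5.20 in Met-high samples. The populations did not overlap, but 1 Met-low array was close to the Met-high arrays, and 1 of 2 Met-high arrays was well above background. Without Met-low replicate 2 its difference was -2.09 (adjusted p = 0.0108) and without Met-low replicate 1 it was -0.47 (adjusted p = 0.555). *Rab24*, a Rab of autophagy, was at 2.17 in both Met-low samples against 2.63 and 2.74 in Met-high samples (difference 0.51, adjusted p = 0.123). *Rab7*, the main Rab of late endosomes, differed by -0.14 with overlap (adjusted p = 0.666), and *Rab9*, of retrieval to the Golgi, by 0.14 (adjusted p = 0.709).

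The Rabs of regulated secretion had differences of both signs, and none passed the test. *Rab3b*, of synaptic and endocrine vesicles, was at -1.93 and -2.79 in Met-low against -3.36 and -2.96 in Met-high samples, a difference of -0.79 (adjusted p = 0.204). It reached -1.22 (adjusted p = 0.0474) without Met-low replicate 2 and was -0.36 (adjusted p = 0.581) without Met-low replicate 1. *Rab3d*, of secretory granules, was at -1.29 and -0.92 in Met-low against -0.65 and -0.17 in Met-high samples, a difference of 0.70 (adjusted p = 0.151). A second probe gave 0.51, but it was well above background on 1 of 2 Met-low arrays and met the brightness rule through Met-high alone. Leaving out Met-high replicate 2 brought *Rab3d* to 0.46. *Rab37*, known from mast cell granules, was well above background on 1 of 2 Met-low arrays and differed by 0.60 (adjusted p = 0.0959). *Rab3a* differed by 0.04 and *Rab3c* by -0.29, the latter with replicate signals 1.46 apart in Met-low cells. Of the Rabs in no other group, *Rab28* and *Rab40c* differed by -0.04 and -0.05.

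Among the 12 Qa-SNARE syntaxins, *Stx3* was the only gene called, and the differences of the other 11 lay between -0.32 for *Stx16* and 0.38 for *Stx7*. *Stx4a*, the widely used syntaxin of the plasma membrane, was at 4.02 and 4.08 in Met-low against 3.88 and 3.81 in Met-high samples, a difference of -0.20 (95% interval -0.59 to 0.19). *Stx7*, of late endosomes, was at 3.49 and 3.68 in Met-low against 3.96 and 3.98 in Met-high samples, without overlap (adjusted p = 0.216). *Stx11*, known from cytotoxic lymphocytes, differed by 0.31 (adjusted p = 0.429). *Stx16*, of transport to the trans-Golgi network, overlapped between the populations (adjusted p = 0.51), and its difference was -0.015 without Met-high replicate 2 and -0.63 without Met-high replicate 1. *Stx1a*, known from neurons, and *Stx2* differed by 0.10 and 0.13, each with overlap. *Stx5a*, *Stx12*, *Stx17* and *Stx18*, of the Golgi, endosomes, autophagosomes and endoplasmic reticulum, differed by 0.09, -0.02, -0.04 and -0.18, each with overlap. The Qb and Qc SNAREs *Vti1a*, *Vti1b* and *Stx8* differed by -0.19, -0.25 and 0.22, and *Stx6* by under 0.01 in size.

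In the SNAP-25 family, which pairs with plasma membrane syntaxins, 2 of 4 genes had a lower mean in Met-high cells, beside 4839 of all 11958. *Snap25*, known from neurons, was at 0.59 and 1.14 in Met-low against 0.03 and 0.21 in Met-high samples, a difference of -0.75 (adjusted p = 0.13), or -0.47 without Met-low replicate 2. *Snap23*, its widely expressed relative, was at -0.37 and 0.11 in Met-low against -0.88 and -0.62 in Met-high samples, a difference of -0.62 (adjusted p = 0.165), with -0.54 from a second probe. *Snap29* and *Snap47*, which act mainly inside the cell, differed by 0.05 and 0.24.

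Of the 7 VAMP genes, 6 had a lower mean in Met-high cells, beside 4839 of all 11958 genes tested, and the median of the group was -0.26. *Vamp2*, a vesicle SNARE of regulated exocytosis, was at 0.18 and 0.14 in Met-low against -0.51 and -0.28 in Met-high samples (difference -0.56, adjusted p = 0.121). *Vamp7*, of late endosomes and lysosomes, was at -0.71 and -0.57 in Met-low against -1.23 and -1.13 in Met-high samples (difference -0.54, adjusted p = 0.119). *Vamp5*, known from muscle, overlapped, at -0.97 and 0.62 in Met-low against -1.33 and -0.48 in Met-high samples (difference -0.73, adjusted p = 0.458). Its difference was 0.06 without Met-low replicate 2. *Vamp3* and *Vamp8*, of recycling and late endosomes, differed by 0.03 and -0.08, and *Vamp1* and *Vamp4* by -0.26 and -0.10. Lower without overlap were 2 of 4 SNAP-25 family genes and 3 of 7 VAMP genes, beside 22.6% of all genes. At an unadjusted p under 0.05, 2 of 4 SNAP-25 family genes (*Snap25*, *Snap23*) and 2 of 7 VAMP genes (*Vamp2*, *Vamp7*) were lower, beside 11.9% of all genes. No gene of either family passed the adjusted p in limma without a block. With the replicate number as a block *Snap25*, *Snap23*, *Vamp2* and *Vamp7* passed, among 3556 of 11958 genes over the whole array. The other genes of both families did not pass with the block.

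Counted over all members, the populations did not overlap in 22 genes with Met-high above and in 20 with Met-high below, which is 26.8% and 24.4% of the members beside 35.7% and 22.6% of all genes, or 51.2% beside 58.3% in either direction. With the 75th percentile over detected probes, 33 members were below, so that this count depends on the scaling. At an unadjusted p under 0.05 there were 10 members higher and 7 lower (20.7% in all), beside 14.3% and 11.9% of all genes and 26.2% in either direction. Replicates of a population agreed within 0.5 for 67 members, and *Rab39b*, *Vamp5* and *Rab3c* had Met-low replicates more than 1 apart. Several probes passed the filter in 22 members, and in 17 of these all lay on the same side of 0.

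Of the 13 genes left out by the brightness rule, *Rab25*, *Rab26*, *Rab27b*, *Rab7b*, *Rab9b*, *Rab19*, *Rab39*, *Rab40b*, *Rab42*, *Stx19*, the antisense gene *Rab11fip4os1* and *Snap91*, a clathrin assembly gene that is no SNARE, were below that mark on all 4 arrays. *Rab33a* was well above background on 1 Met-high array. Just inside the rule were *Rab11fip1*, *Rab11fip5*, *Rab37* and *Rab39b*, each well above background on 3 of 4 arrays. The members outside the role groups, *Rab5if* and the non-coding *Rab10os*, differed by -0.05 and -0.30.

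**Figure D3:**
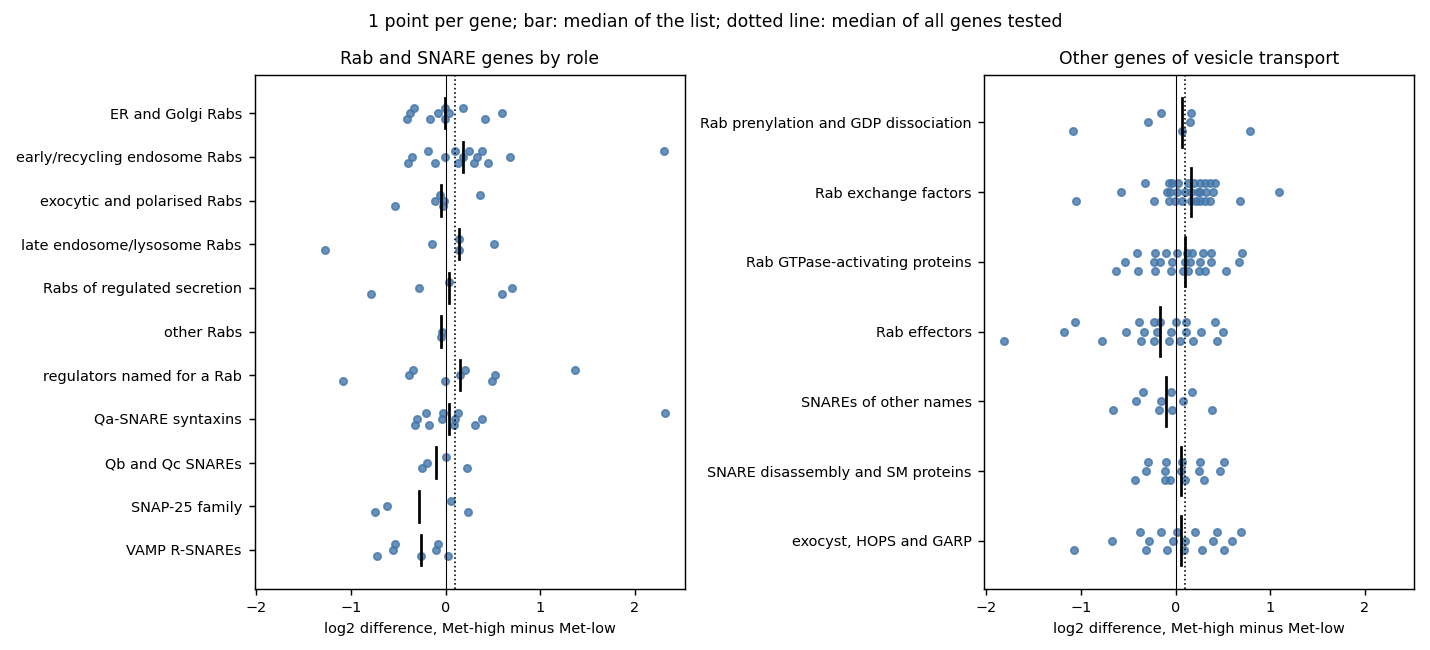
Log2 difference, Met-high minus Met-low, of each member by role (left) and of each other gene of vesicle transport by list (right), with a bar at the median of each list and a dotted line at 0.10, the median of all genes tested. *Stx3* and *Rab17* stand alone at the right of their groups, and *Eea1* at the left of the Rab effectors.

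Other genes that serve Rabs and SNAREs were counted from lists. Of 148 genes, 132 met the brightness rule, and their median difference was 0.05. In limma 4 passed the adjusted p as lower in the Met-high population and 0 as higher, beside 3.82% and 1.95% of all genes, while at an unadjusted p under 0.05 there were 12 and 11, beside 11.9% and 14.3%. As shares of 132 genes these counts are below the background in both directions. The called genes are described by name. *Sytl4*, an effector of Rab27 and Rab3 on secretory granules also called granuphilin, was at -2.54 and -2.51 in Met-low against -3.75 and -3.65 in Met-high samples (difference -1.18, adjusted p = 0.0207). *Exoc4*, a subunit of the exocyst that tethers vesicles to the plasma membrane, was at 0.87 and 0.76 in Met-low against -0.24 and -0.28 in Met-high samples (difference -1.07, adjusted p = 0.0259). *Chml*, an escort protein that presents new Rabs for prenylation, differed by -1.09 (adjusted p = 0.0316), with 1 of 2 Met-high arrays well above background. *Dennd2c*, of a family of Rab exchange factors, differed by -1.05 (adjusted p = 0.0317).

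The largest difference in these lists was that of *Eea1*, the early endosome tether that binds Rab5, which was at -1.66 and -0.98 in Met-low against -3.59 and -2.67 in Met-high samples. Its difference of -1.81 (standard error 0.38) did not pass the test (adjusted p = 0.0612). *Dennd2d*, another gene of the exchange factor family, was higher on both Met-high arrays than on either Met-low array but did not pass (adjusted p = 0.0667, standard error 0.24). The 23 Rab effectors had a median of -0.17, the 32 exchange factors 0.17, the 27 GTPase-activating proteins 0.09 and the 10 SNAREs of other names -0.10. The 15 genes of SNARE disassembly and of SM proteins, which clasp syntaxins, ranged from -0.43 to 0.51, with 0 genes in either direction at an unadjusted p under 0.05 in limma, beside 26.2% of all genes.

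The letters searched, on both strands, were CACGTG and CATGTG, cores bound by basic helix-loop-helix factors such as Mitf and Tfeb, TGACGTCA, the cyclic AMP response element, and the CLEAR element, a palindrome bound by Tfeb that contains CACGTG. The window ran from 250 bases before to 50 bases after the start. CACGTG was found in 10 of 70 members (14.3%) and in 8.09% of 27025 genes in the table, and CATGTG in 7 members (10.0%) and in 15.9% of genes. TGACGTCA was found in *Rab5a* and *Rab11fip3* (2.86%), beside 2.03% of genes. The CLEAR element was found in 3 members (4.29%), beside 0.37% of genes, and is in capitals in these stretches of 30 bases.
Rab5a, chr17:53479127-53479156, plus strand: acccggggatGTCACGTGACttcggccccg
Rab21, chr10:115315604-115315633, minus strand: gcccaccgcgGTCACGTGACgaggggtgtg
Rab24, chr13:55321961-55321990, minus strand: cggcgcccgcGTCACGTGACcgggcgtccc
The match began 97 bases before the start in *Rab5a*, 32 bases before it in *Rab21* and at the start in *Rab24*. The 3 genes did not share a direction, since *Rab5a* differed by -0.40, *Rab21* by 0.39 and *Rab24* by 0.51, none of which passed the adjusted p. A match of letters is a description of the sequence and not of a bound site.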

How the data were processed

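Total RNA of 2 Met-low and 2 Met-high samples was measured on 1-colour arrays with Cy3. The authors deposited, for each array, spot intensities on a linear scale from which background had been subtracted, and flags for outlier, saturated and bright spots. Feature Extraction made these files, in version 11.0.1.1 by their headers and 10.7.3.1 by the submitters' processing notes. A table of log2 values from the authors held the same intensities scaled to the 75th percentile and centred per probe, within 0.01 for 93.5% to 100% of 39297 probes.

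Each intensity was divided by the 75th percentile of its array, taken over all spots that are not controls, and taken to log2. After this scaling 207 to 232 flagged spots per array were removed, and 0 spots were saturated. RefSeq (GRCm38.p6) named 27427 of 39429 probes, and 12002 without a name were left out. The brightest probe of each gene was used. limma 3.58.1 (lmFit and eBayes, R 4.3.3) compared the populations over 11958 genes without a block, and two-sided p-values were adjusted by the method of Benjamini and Hochberg. The fit was tested on simulated data, 2 arrays against 2, with calls at an adjusted p under 0.05 in limma. Of 100 genes changed by 1 on the log2 scale, 50 were called with the right sign. Of 100 changed by 2, 99 were called so, and 10 unchanged genes were called. A gene that did not pass may therefore still differ by 2-fold. No permutation of 2 against 2 arrays can reach 0.05, and none was run. Alternatives changed the background correction (normexp, offset 50, on median intensities), scaling, filter, probe choice, eBayes trend and replicate block, or left out 1 array.

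Members at an adjusted p under 0.05 or past 2-fold, *Stx3* and the Rab5 genes, the 10 largest differences, both ends of each role group and the called genes of the other lists were named by rule, and further genes after their values were seen. The values of 1 member, counted in the totals, are not reported here. Members, lists and rules were chosen with earlier results of these data known. Figures were drawn with Python 3.11.15 and matplotlib 3.10.9.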

Additional observations from a re-analysis of the deposited data

How the results depend on the processing

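The array numbers 1 and 2 are shared by the populations, but the labels state no pairing. Over 11947 genes, the deviations of same-numbered arrays from their group means correlated at 0.54. Of 82 members, 10 were higher and 8 lower in limma at an adjusted p under 0.05 with the replicate number as a block. Added by the block were *Rab20*, *Rab24*, *Rab34*, *Rab37*, *Rab3d*, *Rab3il1* and *Rab3ip* as higher, and *Rab10*, *Rab2b*, *Rab39b*, *Snap23*, *Snap25*, *Vamp2* and *Vamp7* as lower. Of 132 genes of the other lists, 11 were higher and 13 lower. Over the whole array, 1976 genes were higher and 1580 lower, and the genes called rose from 690 to 3556 of 11958. The shares of the members and of the other lists were below those of all genes in both directions. Without a filter on dim probes, 0 members and 0 genes of the other lists were called in either direction, and 7 genes over the whole array. The members called lower were 0 with normexp, with quantile normalization, on all 4 arrays well above background, with flagged spots kept, with the mean of a gene's probes, with every probe by itself, with the authors' values and with a mean-variance trend, since *Rab11fip5* was then not called or not tested. The members past 2-fold and lower were 0 with normexp and 0 well above background on all arrays, and 1 after quantile normalization, and 5 probes were higher with every probe by itself. The members below without overlap were 33 with the percentile of detected probes. The median difference of the members was -0.069 after quantile normalization and -0.16 with that percentile. Genes of the other lists called lower were 2 after quantile normalization.

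With each array left out in turn, 2 to 3 members were called higher and 0 to 2 lower, 3 were higher and 2 to 4 lower past 2-fold, 29 to 34 lay above and 28 to 33 below without overlap, and the median difference lay between -0.028 and 0.025. Of the other lists, 0 to 1 genes were called higher and 2 to 4 lower. Some small differences turned: *Rab5b* was -0.12 over the mean of its probes, *Rab5c* was 0.021 with normexp and, over the arrays left out, between -0.25 and 0.24, above 0 without Met-low replicate 1 and without Met-high replicate 2 (0.16), and *Vamp3* was -0.0078 with normexp, -0.12 with the percentile of detected probes, -0.16 without Met-low replicate 2 and -0.19 without Met-high replicate 1. With Met-low replicate 1 or 2 left out, *Rab28* was -0.14 or 0.066 and *Vamp5* -1.52 or 0.061, and *Rab40c* was 0.080 without Met-low replicate 1. With each array left out in turn, *Snap47* lay between 0.10 and 0.37, *Stx8* between 0.14 and 0.31 and *Vti1b* between -0.43 and -0.075. The cause of these changes was not tested. A population left with 1 array was given the spread of the other. Non-overlap then needs only that this 1 array lie outside the range of the other population. The counts without overlap, 29 to 34 above and 28 to 33 below, are therefore not comparable with the 22 and 20 on all arrays. No share over all genes was set beside them, so they are not a result about the members. *Stx3* stayed between 1.81 and 2.69 and *Rab17* between 2.01 and 2.61 over the alternatives without pairing.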
